A study of Mus musculus with 6 samples.

Results

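The genes described here make prostaglandins and thromboxane from arachidonic acid or encode a pair of receptors for prostaglandin E2. They are the 10 genes Pla2g4a, Ptgs1, Ptgs2, Ptges, Ptges2, Ptges3, Hpgds, Tbxas1, Ptger2 and Ptger4, found by symbol among the 55401 genes of the deposited table, with 1 identifier each. The list was drawn up with the difference between treated and control cells already known, so that difference is given for these genes as a description and nothing is rested on it. All 10 had enough counts to enter the fit.

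The study exposed mouse cells to NETs, the neutrophil extracellular traps of chromatin and granule enzymes that activated neutrophils cast out, and measured RNA by sequencing. There were 3 NETs-treated and 3 control samples, all of wild-type genotype, the controls being labelled Normal. The labels name the cells BMDM (bone marrow-derived macrophages), while the titles carry BV2, the name of a mouse microglial line. The amount of NETs, the time of exposure and the age of any animal are not stated in the labels. Nor do they say whether samples came from separate cultures or animals, so the p-values below reflect only how these samples scatter, and that scatter may be technical.

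Phospholipase A2 frees arachidonic acid from membranes, and a cyclooxygenase turns it into prostaglandin H2, the common precursor. Ptgs1 encodes the cyclooxygenase that most tissues make constantly and Ptgs2 the one that inflammatory stimuli induce. Terminal synthases then make prostaglandin E2, prostaglandin D2, prostacyclin or thromboxane. Prostaglandin E2 acts through 4 EP receptors, of which EP2 and EP4 raise cyclic AMP and restrain or redirect macrophage activation.

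The promoters shown next belong to the inducible cyclooxygenase gene, its constitutive counterpart, the inducible prostaglandin E synthase gene and the thromboxane synthase gene. Of these, Ptgs2 and Ptges were higher after NETs, and Ptgs1 and Tbxas1 were lower. Other genes described here moved in either direction too, and their promoters are not printed. Each line holds the 250 bases before the RefSeq start in GRCm38.p6, 5′ to 3′ on the gene's strand. Capitals mark letters matching a searched motif on either strand. For Ptges and Tbxas1 the RefSeq start lies inside a longer GENCODE span.
Ptgs2 promoter, chr1:150099781-150100030, plus strand: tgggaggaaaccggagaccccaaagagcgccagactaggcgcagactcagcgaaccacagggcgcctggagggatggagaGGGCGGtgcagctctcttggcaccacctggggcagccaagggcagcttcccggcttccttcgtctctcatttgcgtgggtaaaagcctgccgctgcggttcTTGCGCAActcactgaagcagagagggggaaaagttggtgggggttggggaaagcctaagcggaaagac
Ptgs1 promoter, chr2:36230176-36230425, plus strand: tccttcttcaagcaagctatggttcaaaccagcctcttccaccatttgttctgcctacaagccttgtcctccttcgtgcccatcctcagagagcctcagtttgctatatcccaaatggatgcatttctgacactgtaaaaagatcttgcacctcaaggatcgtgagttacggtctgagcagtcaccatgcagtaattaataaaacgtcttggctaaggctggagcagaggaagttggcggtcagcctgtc
Ptges promoter, chr2:30903298-30903547, minus strand: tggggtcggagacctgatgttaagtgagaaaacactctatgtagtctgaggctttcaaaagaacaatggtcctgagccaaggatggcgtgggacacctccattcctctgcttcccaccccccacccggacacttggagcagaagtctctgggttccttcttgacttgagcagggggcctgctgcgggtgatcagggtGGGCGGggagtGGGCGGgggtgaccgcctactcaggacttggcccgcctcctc
Tbxas1 promoter, chr6:38918736-38918985, plus strand: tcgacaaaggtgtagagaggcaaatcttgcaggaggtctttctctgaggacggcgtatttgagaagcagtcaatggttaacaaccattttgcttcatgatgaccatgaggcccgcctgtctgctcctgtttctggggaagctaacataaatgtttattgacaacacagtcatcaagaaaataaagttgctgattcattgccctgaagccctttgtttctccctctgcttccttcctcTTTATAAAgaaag

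The Ptgs2 window held the palindrome TTGCGCAA, a form of the C/EBP element, from 69 to 62 bases before the start, and 1 GC box (GGGCGG) from 170 to 165 bases before it. Of 32851 RefSeq promoter windows of this length, 0.16% held TTGCGCAA and 32.74% a GC box. The Ptges window held 2 GC boxes, starting 53 and 42 bases before its start. The Tbxas1 window held TATAAA 11 bases before its start, with an overlapping copy on the other strand, a motif present in 12.37% of windows. In the Ptgs1 window none of the searched motifs was found. The others searched were CACGTG (6.02% of windows), TGACG (17.77%), CCAAT (33.85%) and 2 forms of the NF-kB element (1.41% and 1.53%). The motifs were chosen knowing these promoters, and a match is a description of the letters only.
Just inside the annotated Ptgs2 transcript, the core of a cyclic AMP response element (CGTCA) and an E-box (CACGTG) share letters. They are printed in capitals and span bases 14 to 22 counted from the start.
Ptgs2 start, chr1:150100036-150100060, plus strand: caccactaCGTCACGTGgagtccgc

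Ptgs2 was far higher in the NETs-treated libraries, Ptgs1 was lower, and the 3 genes named for prostaglandin E synthases were moderately higher. Tbxas1 was much lower. Hpgds and the receptor gene Ptger4 lay at like levels in both groups, and Ptger2 was close to the limit of detection. In the fit across all genes (quasi-likelihood test of edgeR, p-values adjusted by Benjamini-Hochberg), 4 of the 10 passed an adjusted p of 0.05 as higher and 3 as lower, where 52.7% of the 15272 tested genes passed in either direction. By direction, 25.5% of tested genes passed as higher and 27.2% as lower. At least a 2-fold change with a call was found for 2 of the 10 and for 19.3% of tested genes. The groups did not overlap for 7 of the 10 and for 62.4% of tested genes. The median log2 fold change was 0.29 over the 10 and -0.02 over all tested genes. Since the list was chosen on this contrast, nothing is read from these counts.

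**Figure D1:**
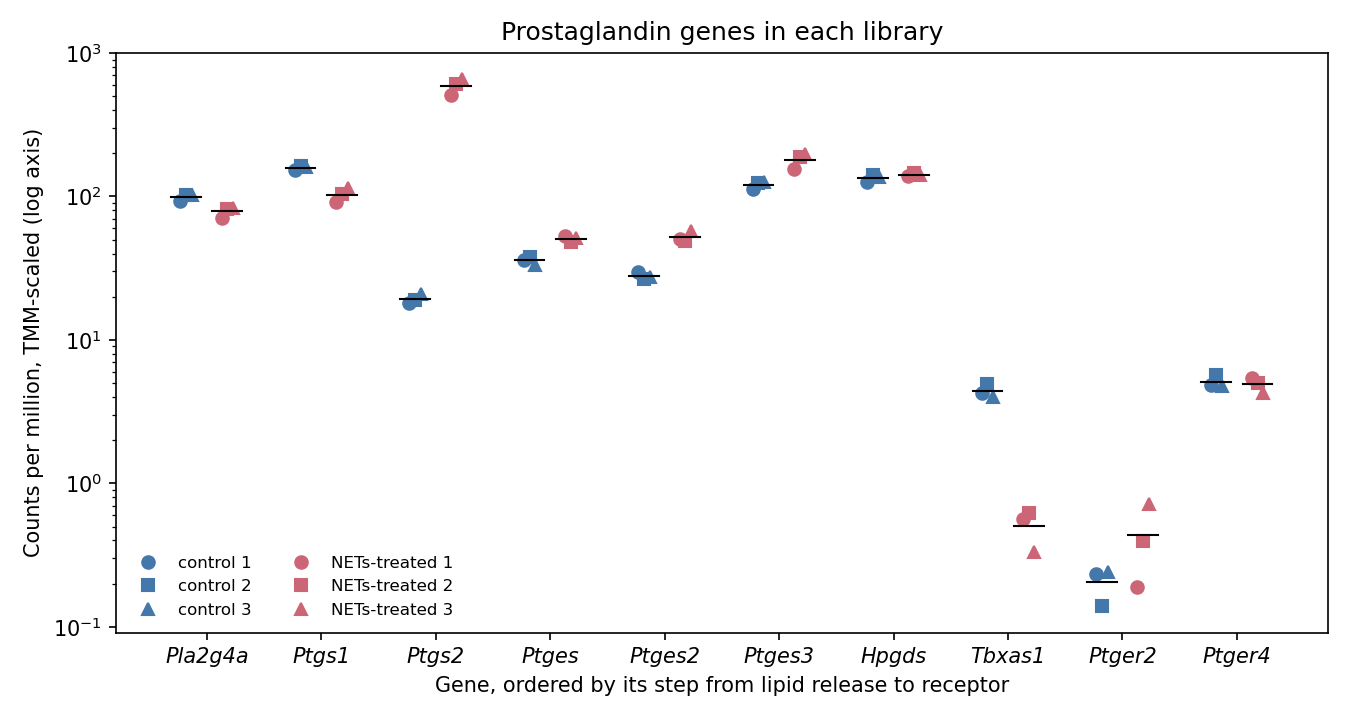
Level of each gene in each library, in TMM-scaled CPM on a log axis; symbols are libraries, colours are groups and horizontal lines are group means. The 3 NETs-treated libraries sit between 512 and 655 for Ptgs2, against 18.1 to 21.1 in control, while those of Hpgds lie within or next to the control range.

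Total counts ran from 39994613 to 44274445 per library. Levels are CPM, the read count normalised for depth with TMM scaling, and ± is the SD over 3 libraries unless it is called an SE. All 10 macrophage markers were detected, with a summed level of 6100 to 6292 CPM in control and 10597 to 10968 CPM in NETs-treated libraries, where Cd14 and Lyz2 rose and the other 8 fell. Of the 9 microglia markers Sall1 was at 0 in all 6 libraries, and Tmem119 rose from 1.44 to 5.04 CPM. P2ry12, Cx3cr1 and Gpr34 fell, from 0.878, 1.99 and 1.86 CPM in control to 0.129, 0.838 and 0.0941 CPM after NETs. Of 11 neutrophil markers S100a9, Mpo, Ngp, Ltf, Retnlg and Ly6g were at 0 in all 6. The sum was 5.37 to 7.31 CPM in control and 10.4 to 16.6 CPM in NETs-treated libraries, most of the latter S100a8. Of the 3 tested neutrophil markers, S100a8 rose and Cxcr2 fell, the latter from 1.60 to 0.809 CPM. The third, Mmp8, went from 1.80 to 1.03 CPM and did not pass. The fibroblast list summed to at most 0.0930 CPM in any library. In bulk RNA, fewer cells of a type and less RNA per cell cannot be told apart.

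Pla2g4a encodes cytosolic phospholipase A2 alpha, the enzyme that opens the pathway. It had 92.6, 102 and 103 CPM in control and 71.0, 82.3 and 83.4 CPM in NETs-treated libraries. The groups did not overlap, and its log2 fold change was -0.33 ± 0.09 (SE). This was the smallest difference among the genes past the threshold, and it missed the threshold without control replicate 3 (log2 fold change -0.31, adjusted p = 0.0533 in edgeR's quasi-likelihood test). Pla2g4a (ENSMUSG00000056220.14) lies on the minus strand of chromosome 1 from 149829618 to 149961290 in GRCm38, as do the coordinates that follow, from GENCODE M21.

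Ptgs1 (ENSMUSG00000047250.13; chromosome 2, 36230426 to 36252272) had 154, 162 and 161 CPM in control. In the NETs-treated libraries it had 91.6, 104 and 114 CPM, so every treated library lay below every control library. Its log2 fold change was -0.63 ± 0.09 (SE), 1.54-fold lower.

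Ptgs2 (ENSMUSG00000032487.8; chromosome 1, 150100031 to 150108227) had 18.1, 19.0 and 21.1 CPM in control and 512, 611 and 655 CPM in NETs-treated libraries. Its log2 fold change was 4.93 ± 0.12 (SE), with a 95% interval of 4.66 to 5.20, or 30.5-fold. All 3 treated libraries lay far above the highest control library.

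The balance between the cyclooxygenase transcripts was reversed between the groups. It is a ratio taken within each library and needs no scaling between libraries. In control there were 8.50, 8.54 and 7.64 reads of Ptgs1 for each read of Ptgs2. In the NETs-treated libraries there were 5.59, 5.88 and 5.74 reads of Ptgs2 for each read of Ptgs1. The ratio of Ptgs2 to Ptgs1 was 0.122 ± 0.0078 in control and 5.74 ± 0.145 after NETs, a 47.1-fold difference. Both terms moved, but most of it came from Ptgs2. Per kb of exon, the Ptgs2 to Ptgs1 ratio was 0.103 ± 0.0066 in control and 4.87 ± 0.123 after NETs.

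Ptges encodes microsomal prostaglandin E synthase 1, the inducible enzyme usually paired with Ptgs2. It (ENSMUSG00000050737.13; chromosome 2, 30889471 to 30929863, minus strand) had 36.1, 38.0 and 33.5 CPM in control and 52.9, 48.0 and 51.5 CPM in NETs-treated libraries. The groups did not overlap, and the log2 fold change was 0.50 ± 0.08 (SE), 1.42-fold. Within its span lies the pseudogene Gm13400, with 7 to 12 counts in control and 28 to 57 after NETs, against 1522 to 2251 for Ptges.

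Ptges2 encodes a membrane-associated protein named as a prostaglandin E synthase. This gene (ENSMUSG00000026820.5; chromosome 2, 32395896 to 32405772) had 29.7, 26.7 and 27.6 CPM in control and 50.5, 48.8 and 57.5 CPM in NETs-treated libraries. Its log2 fold change of 0.90 ± 0.09 (SE), 1.87-fold, was the largest of the 3 synthase genes of this name.

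Ptges3 encodes p23, a co-chaperone of HSP90 that also carries the name cytosolic prostaglandin E synthase. Levels of it (ENSMUSG00000071072.12; chromosome 10, 128058954 to 128077272) were 113, 124 and 127 CPM in control and 156, 188 and 197 CPM in NETs-treated libraries. The log2 fold change was 0.57 ± 0.10 (SE), 1.49-fold. Ptges3-ps, by its name a pseudogene of Ptges3, was listed with 1062 to 1194 counts in control and 1241 to 1792 after NETs. The sequences of these genes were not compared. The count of Ptges3-ps was 21.1% ± 3.09 of that of Ptges3 in control and 20.7% ± 3.73 after NETs. How reads matching both would be counted is not stated, so the division of reads between these genes is uncertain. With the counts of both added together the log2 fold change was 0.57.

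Hpgds makes prostaglandin D2 and is known from mast cells, T helper cells and macrophages. The gene (ENSMUSG00000029919.5; chromosome 6, 65117293 to 65144908, minus strand) had 126, 141 and 137 CPM in control and 139, 146 and 140 CPM in NETs-treated libraries. The groups overlapped, and the log2 fold change was 0.08, with a 95% interval of -0.08 to 0.23. Of the 7 mast cell markers, Kit, Mcpt4, Tpsb2, Fcer1a and Ms4a2 were at 0 in all 6 libraries, and the list summed to at most 0.395 CPM in any library.

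Tbxas1 encodes thromboxane A synthase, which platelets and macrophages use. It (ENSMUSG00000029925.13; chromosome 6, 38875404 to 39084585) had 4.26, 4.92 and 4.01 CPM in control and 0.564, 0.624 and 0.332 CPM in NETs-treated libraries. These values rest on 182 to 212 reads per control library and 13 to 25 per treated library. Its log2 fold change was -3.11 ± 0.31 (SE), with a 95% interval of -3.82 to -2.40, 8.62-fold lower. Hpgds, on the same prostaglandin H2 branch point, had 30.8 ± 2.89 reads per read of Tbxas1 in control and 301 ± 105 after NETs. Among the 7 platelet and megakaryocyte markers Gp6 was at 0 in all 6 libraries, and Pf4, which macrophages can also express, made up most of the sum of 87.8 to 91.5 CPM in control and 134 to 170 CPM after NETs. Other markers of this list had few reads and went either way. Tubb1 was counted 9, 14 and 15 times in control and 0, 6 and 0 times after NETs. Gp9 was counted 4, 12 and 8 times and then 4, 0 and 0 times, and Ppbp 0, 10 and 0 times and then 11, 14 and 8 times. Itga2b and Gp1ba did not pass. Whether such cells had a part in the Tbxas1 result was not tested. The annotation of Tbxas1 overlaps 3 genes on the other strand. These are the antisense genes Gm42962, over 67228 bases and at 0 counts in all 6 libraries, and 1700025N23Rik, over 3721 bases and with 2 counts in 1 control library, and Hipk2, over 762 bases. Hipk2 had 4652 to 6565 counts, and whether the counting used strand is not stated in the labels.

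Ptger4 encodes EP4. Its values (ENSMUSG00000039942.15; chromosome 15, 5206661 to 5244187, minus strand) were 4.81, 5.71 and 4.76 CPM in control and 5.46, 5.01 and 4.29 CPM in NETs-treated libraries. The groups overlapped, and the log2 fold change was -0.05, with a 95% interval of -0.48 to 0.38. The annotated gene overlaps Ttc33 on the other strand over 11676 bases, and Ttc33 had 1715 to 2091 counts against 168 to 246 for Ptger4.

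Ptger2 encodes EP2. This gene (ENSMUSG00000037759.6; chromosome 14, 44988195 to 45003820) was counted 10, 6 and 11 times in control and 8, 16 and 28 times in NETs-treated libraries. The corresponding levels were 0.233, 0.139 and 0.242 CPM and 0.188, 0.399 and 0.715 CPM. The groups overlapped, and the log2 fold change of 1.07 had a 95% interval of -0.45 to 2.59, so a difference was not detectable at this depth, and the interval leaves room for a rise of several fold but not for a fall of that size. Antisense genes on the other strand, Gm17173 and Gm49364, had 0 counts in the NETs-treated libraries and up to 25 in a control library.

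**Figure D2:**
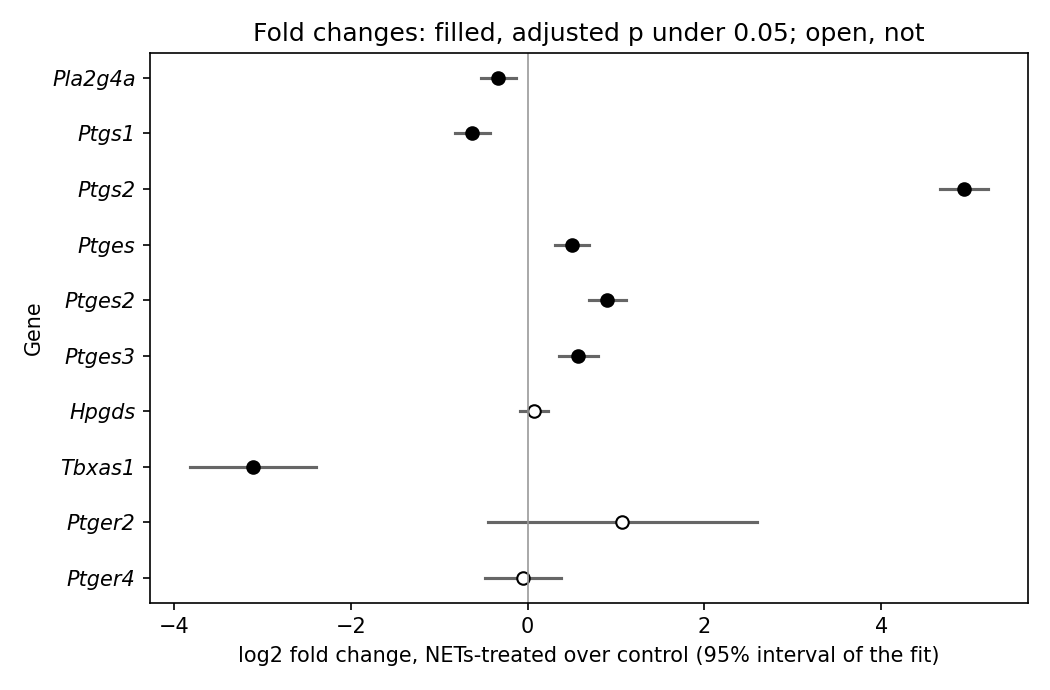
Log2 fold change of each gene in NETs-treated over control samples with the 95% interval of the fit; filled points passed an adjusted p of 0.05 over all genes tested and open points did not. Ptgs2 (4.93) and Tbxas1 (-3.11) lie farthest from 0, and the interval of Ptger2 is the widest.

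Levels of different genes were compared per kb of exon, on the scale of CPM per kb. The length is that of all annotated exons of a gene together, so the order rests on the annotation as well as on the reads. In control the order was Ptges3 at 54.7, Ptgs1 at 41.0, Hpgds at 21.0, Pla2g4a at 15.5, Ptges at 9.12, Ptges2 at 5.53 and Ptgs2 at 4.24. Below these came Ptger4 at 0.766, Tbxas1 at 0.483 and Ptger2 at 0.0394. No neighbours in this order overlapped between libraries, which covers the scatter of libraries but not any error in the exon lengths. Ptgs2 thus moved from the seventh place to the first, at 129 ± 16.0 CPM per kb after NETs. It was followed there by Ptges3 at 81.3, Ptgs1 at 26.6 and Hpgds at 22.1. Next stood Ptges at 12.9, Pla2g4a at 12.4 and Ptges2 at 10.3, where Pla2g4a overlapped in range with the genes above and below it. Ptger4 stood at 0.740, and Ptger2 at 0.0836 overlapped with Tbxas1 at 0.0557.

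**Figure D3:**
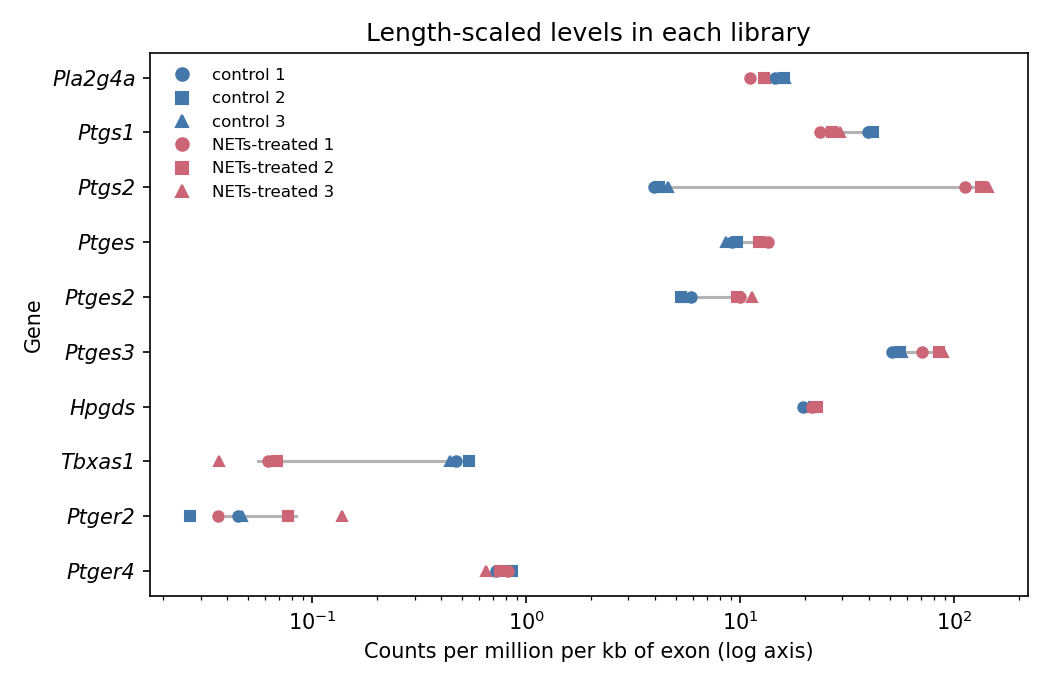
Level per kb of exon in each library on a log axis, with a grey line between the group means of each gene. Ptgs2 crosses from 4.24 in control to 129 in NETs-treated libraries, above every other gene shown.

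The spread among NETs-treated libraries followed a shared order for several of these genes. Replicate 1 was the lowest treated library for Ptgs2, Ptgs1, Ptges3, Pla2g4a, Ptger2 and, narrowly, Hpgds. It lay 0.20 below the group mean of log2 CPM for Ptgs2 and Ptges3, 0.17 below for Ptgs1 and 0.15 below for Pla2g4a. Replicate 3 was the highest for Ptgs2, Ptgs1, Ptges3, Pla2g4a, Ptger2 and Ptges2, and the lowest for Tbxas1 and Ptger4. The SD of log2 CPM was larger after NETs than in control for each of these genes except Ptges and Hpgds. Over all tested genes the median SD was 0.20 after NETs and 0.12 in control.

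Ptgs2 and Pla2g4a are neighbours on chromosome 1, 138.741 kb apart, with only Ptgs2os and non-coding or pseudogene annotations between them. Ptgs2os, a transcript that runs away from Ptgs2 on the other strand, is annotated to begin 68 bases before the Ptgs2 start, within the TTGCGCAA palindrome printed above. It was counted 8, 5 and 7 times in control and 46, 107 and 100 times after NETs. It rose with a log2 fold change of 3.76 ± 0.51 (SE; edgeR adjusted p = 0.000358). Ptgs2os2, 50.816 kb beyond the other end of Ptgs2, was counted 76, 74 and 64 times in control and 284, 462 and 465 times after NETs. This transcript rose with a log2 fold change of 2.62 ± 0.26 (SE; adjusted p = 7.15e-05 in edgeR). NETs-treated replicate 1 was the lowest treated library for both, as for Ptgs2.

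Beyond Ptgs2os2, the protein-coding genes within 500 kb were not called. Pdc and Hmcn1 were at 0 in all 6 libraries. Odr4, 253.078 kb away, had a log2 fold change of -0.26 ± 0.11 (adjusted p = 0.0673), and Tpr, 284.611 kb away, one of 0.19 ± 0.08 (adjusted p = 0.0793), both SE and by edgeR. Prg4, at 12 to 31 counts per library, also missed the threshold. Reads for each read of Ptgs2os numbered 133 ± 33.3 of Ptgs2 in control and 320 ± 134 after NETs. These neighbours were chosen by position within 500 kb of Ptgs2 after the data were seen.

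**Figure D4:**
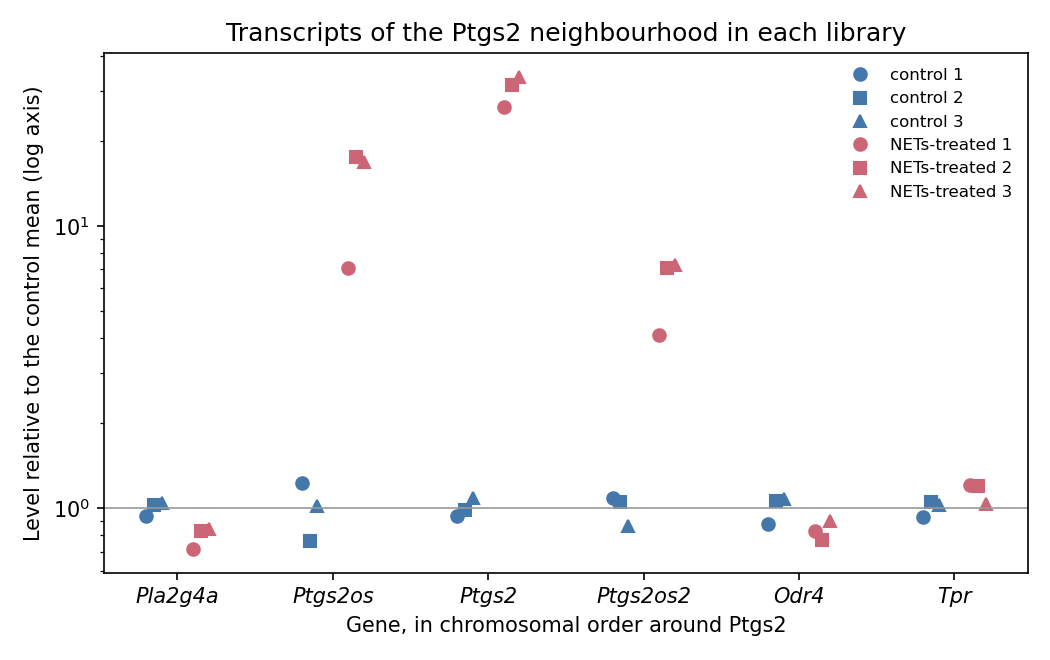
Level of each transcript relative to its own control mean, per library on a log axis, in chromosomal order around Ptgs2. Ptgs2, Ptgs2os and Ptgs2os2 lie above every control library, while Pla2g4a, Odr4 and Tpr stay near 1.

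Profiles were compared with those of genes averaging 10 CPM or more, leaving out predicted genes, clone-named genes, pseudogenes and the 10 themselves. Across 6 libraries, the closest of these to Ptgs2 was Cxcl2, a chemokine gene. The Euclidean distance between their log2 CPM values, each taken relative to the control mean, was 0.287. The next were Klf2 at 2.03 and Odc1 at 2.05, so only Cxcl2 was close among the genes compared. For Tbxas1 the closest were Hp at 0.307, Prag1 at 0.443 and Aatk at 0.466, with log2 fold changes of -3.12, -2.94 and -2.99. These distances describe 2 groups of 3 libraries and mostly measure the size of the difference between groups.

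The lists of pathway genes outside these 10 held 172 symbols, of which 115 identifiers were tested. Of these 34 rose, 50 fell and 31 did not pass. Over all tested genes, 25.5% passed as higher and 27.2% as lower, 52.7% in all. Their median log2 fold change was -0.25. Of the 171 identifiers found, 30 were at 0 in all 6 libraries.

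Among the enzymes that can release arachidonate or related lipids, 3 of 19 tested genes rose and 8 fell. The 11 called in either direction are close to the 52.7% called among all tested genes. By direction, 25.5% of all tested genes rose and 27.2% fell. The share of this list that fell was above that, the share that rose below it, and the list was not tested as a set. Their median log2 fold change was -0.30. Pla2g2e, a secreted phospholipase A2 gene, fell from 28.4 ± 0.959 to 9.60 ± 3.13 CPM (log2 fold change -1.56 ± 0.22 SE; edgeR adjusted p = 0.000429). Pla2g5, another secreted form, with 130 ± 7.17 CPM in control and 117 ± 18.4 CPM after NETs, had a log2 fold change of -0.14 ± 0.11 and did not pass. It fell without NETs-treated replicate 1 (-0.24, edgeR adjusted p = 0.0446). The lysophospholipase gene Pnpla7 fell from 164 ± 4.64 to 40.3 ± 3.99 CPM, and Abhd12, which encodes a lipid hydrolase, from 99.9 ± 4.67 to 41.1 ± 6.07 CPM. Upward changes were smaller, with 0.40 ± 0.10 for Pnpla8 and 0.47 ± 0.11 for Dagla.

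Genes that make arachidonate or return it to phospholipids were split: 5 of 14 rose, 6 fell, and the median was -0.08. Among all tested genes 25.5% rose and 27.2% fell. Acsl4, which activates arachidonate for esterification, rose from 375 ± 15.8 to 722 ± 65.2 CPM (log2 fold change 0.95 ± 0.08 SE; edgeR adjusted p = 2.25e-05). Lpcat3 and Mboat7, acyltransferases that place arachidonate into phospholipids, rose with log2 fold changes of 1.27 ± 0.12 and 0.61 ± 0.08. Fads1, the delta-5 desaturase that makes arachidonate, fell by 0.76 on the log2 scale. The lipid carriers Fabp4 and Fabp5 fell by 1.49 and 1.07.

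Of the other prostanoid synthase genes, 4 were tested, 1 rose and 1 fell, where 25.5% of all tested genes rose and 27.2% fell. Akr1b3, an aldose reductase that can make prostaglandin F2 alpha, rose from 51.2 ± 1.45 to 86.9 ± 3.24 CPM (log2 fold change 0.76 ± 0.07 SE; edgeR adjusted p = 3.94e-05). The prostacyclin synthase gene Ptgis was counted 30, 13 and 34 times in control and 6, 0 and 0 times after NETs. Its call (edgeR adjusted p = 0.0245) was lost without control replicate 1 (0.0857), control replicate 3 (0.0898), NETs-treated replicate 2 (0.0733) or NETs-treated replicate 3 (0.0554), and without a filter on low counts (0.0764). It was not tested under a filter of 1 CPM in 3 samples.

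The main gene of prostaglandin breakdown, Hpgd, and the uptake carrier gene Slco2a1 were at 0 in all 6 libraries, where 3 counts over the 3 libraries of a group would correspond to 0.0228 CPM in control and 0.0246 CPM after NETs. Of the 4 tested genes of transport and inactivation, 3 fell and 0 rose, by small amounts. Among all tested genes 27.2% fell and 25.5% rose. Log2 fold changes were -0.32 ± 0.08 for the exporter gene Abcc4, -0.39 ± 0.11 for Ptgr1 and -0.38 ± 0.11 for Ptgr2, both reductases of prostaglandin metabolites, all SE. The fourth, Zadh2, did not pass at -0.23 ± 0.09, but did so with scaling by library size only (-0.30, edgeR adjusted p = 0.0208). Without control replicate 3, none of the 3 calls held in edgeR, with adjusted p of 0.0502, 0.0590 and 0.0780 for Abcc4, Ptgr1 and Ptgr2. The call of Ptgr1 was also lost without control replicate 2 (0.0534). That of Ptgr2 was also lost without control replicate 1 (0.0717), NETs-treated replicate 1 (0.0617) or NETs-treated replicate 2 (0.108).

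Among the other prostanoid receptor genes, Ptger3, Ptgdr, Ptgfr and the related Ptgfrn were at 0 in all 6 libraries, and 2 were tested. Ptgir, the prostacyclin receptor gene, had 271, 239 and 250 CPM in control and 141, 115 and 99.3 CPM after NETs. It fell with a log2 fold change of -1.10 ± 0.12 (SE; edgeR adjusted p = 0.000125). Ptger1, encoding EP1, went from 41.8 ± 2.00 to 33.2 ± 4.94 CPM (log2 fold change -0.33, edgeR adjusted p = 0.0391). Its call was lost without control replicate 1 (0.116), 2 (0.0640) or 3 (0.111), without NETs-treated replicate 1 (0.0788) or 3 (0.0560), and without a filter (0.0722). Its level is uncertain, since whether the counting used strand is not stated.

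Lipoxygenase and leukotriene genes, the other main route of arachidonate, had 2 of 11 tested identifiers higher and 7 lower, with a median of -0.67, where 25.5% of all tested genes were higher and 27.2% lower. Alox5, the 5-lipoxygenase gene, was counted 5, 11 and 0 times in control and 0 times in the NETs-treated libraries. Alox5ap, its activating protein, rose with a log2 fold change of 0.30 ± 0.07 (SE). The other higher gene was Lta4h, the leukotriene A4 hydrolase gene, at 0.27 ± 0.08. Its call (edgeR adjusted p = 0.0153) was lost with scaling by library size only (0.0547) and without control replicate 2 (0.0627), control replicate 3 (0.0517) or NETs-treated replicate 2 (0.0622). Cysltr1, a receptor for cysteinyl leukotrienes, fell from 5.68 ± 0.318 to 1.11 ± 0.418 CPM (log2 fold change -2.35 ± 0.30 SE; edgeR adjusted p = 0.000257), and its span overlaps a gene on the other strand. Mgst3, Mgst2 and Ltc4s, whose products can conjugate leukotriene A4 with glutathione, had log2 fold changes of -1.32, -0.81 and -0.67. Calls of the lower genes Alox15 and Dpep3 rested on few reads, at most 29 and 33 per library. Both were lost in edgeR without control replicate 1, 2 or 3, without NETs-treated replicate 2 and without a filter on low counts. That of Dpep3 was also lost without NETs-treated replicate 3, with the replicate block, in the Wald test of DESeq2 and in the authors' deposited table. In the cytochrome P450 and epoxide branch 4 of 6 fell and 0 rose, Ephx1, the microsomal epoxide hydrolase gene, from 19.8 ± 2.11 to 3.18 ± 1.28 CPM.

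Of the genes that relay EP2 and EP4 signals through cyclic AMP, 24 were tested, of which 5 rose and 11 fell (7 fell without control replicate 3), where 25.5% of all tested genes rose and 27.2% fell. The share that rose was thus near that of any gene. The share that fell was above it in the reported fit, and the list was not tested as a set. Gnas, which encodes the G protein subunit that both receptors use, had 1013 CPM in control and 985 CPM after NETs and did not pass. The adenylyl cyclase genes Adcy7 and Adcy9 fell with log2 fold changes of -0.44 ± 0.07 and -1.78 ± 0.11 (SE). Arrb1, which encodes an arrestin that desensitises receptors, fell from 125 ± 4.38 to 32.8 ± 1.60 CPM (edgeR adjusted p = 4.68e-07). Pde4b, a phosphodiesterase that breaks down cyclic AMP, rose from 37.4 ± 3.28 to 318 ± 38.3 CPM (log2 fold change 3.09 ± 0.11 SE; edgeR adjusted p = 3.43e-07).

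Transcripts known as targets of cyclic AMP and CREB had 9 of 11 tested members higher and 2 lower, with a median log2 fold change of 2.02 against -0.02 over all tested genes, of which 25.5% were higher. Crem had 9.84, 10.1 and 10.6 CPM in control and 81.2, 93.0 and 111 CPM after NETs, a log2 fold change of 3.22 ± 0.13 (SE; edgeR adjusted p = 4.93e-07). The nuclear receptor genes Nr4a1 and Nr4a2 rose with log2 fold changes of 2.16 ± 0.18 and 2.13 ± 0.15, Fos with 2.02 ± 0.08 and the phosphatase gene Dusp1 with 1.64 ± 0.06. Many of these genes also answer other signals, and Pde4b and Pde4d stand in the relay list too. Against that direction, Rgs2 fell from 137 ± 7.56 to 31.1 ± 2.14 CPM. The other lower gene was Pde4d, counted 90 to 111 times in control and 36, 15 and 0 times after NETs. Its call was lost in edgeR without control replicate 1 (adjusted p = 0.0940), 2 (0.0874) or 3 (0.0726), without NETs-treated replicate 2 (0.0970) and without a filter (0.0863).

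Of 15 genes for transcription factors known at the Ptgs2 promoter, 8 rose and 4 fell, against 25.5% and 27.2% of all tested genes, with a median of 0.34. Cebpb, whose product binds C/EBP elements, rose from 534 to 1273 CPM (log2 fold change 1.25 ± 0.13 SE; edgeR adjusted p = 8.47e-05), while Cebpd and Cebpa fell with -0.89 ± 0.15 and -1.47 ± 0.27. Nfkb2 rose with 1.02 ± 0.11 and Creb1 with 0.65 ± 0.11, and Usf2, whose product binds E-boxes, fell with -0.96 ± 0.11. Unlike Ptgs2, Cebpb was highest in NETs-treated replicate 1, with 1538, 1250 and 1031 CPM in replicates 1, 2 and 3. Of the 7 genes for HSP90 and partners of p23, 2 rose and 3 fell, to be set beside the same shares of all tested genes. Hsp90aa1 and Hsp90ab1 rose with log2 fold changes of 0.38 ± 0.07 and 0.27 ± 0.05, and the co-chaperone gene Fkbp4 fell with -0.98 ± 0.13.

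**Figure D5:**
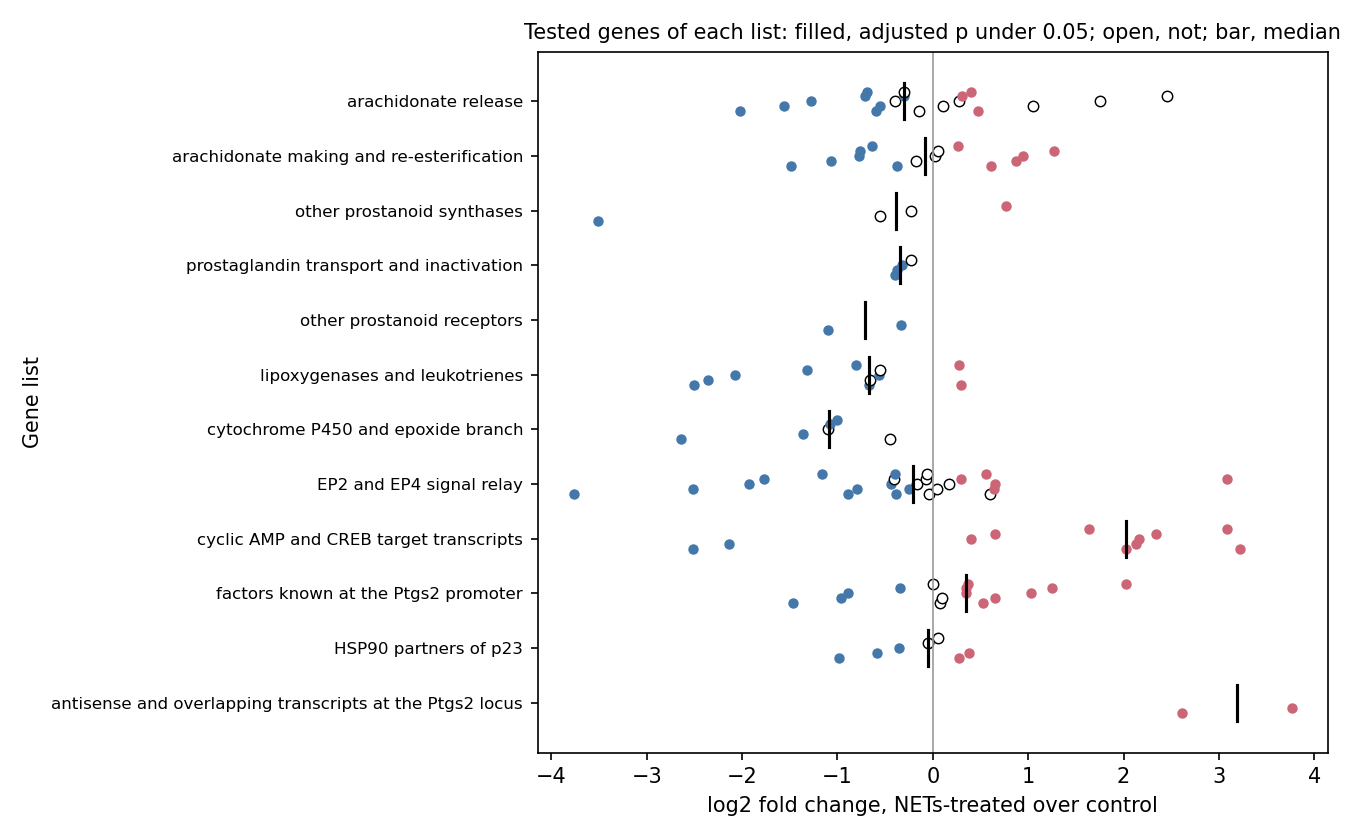
Log2 fold change of each tested gene by list, filled in red where called higher, filled in blue where called lower, open where not called, with a bar at the list's median. The cyclic AMP and CREB targets have a median of 2.02, and the cytochrome P450 and epoxide branch one of -1.09.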

How the data were processed

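RNA of 3 control and 3 NETs-treated samples was sequenced after strand-specific library preparation (labels' protocols). Per the submitters' processing notes, HISAT2, DESeq2, mm10 and, although the cells are mouse, rn6 were used, with roles and versions unstated. Not given in the sources used here are the counting program, its use of strand, its handling of multiply matching reads and the gene models. The authors deposited 1 table with raw read counts per gene and sample, normalised counts (a signal, found from the values to be the count over a constant for each sample), log2 fold changes, and p-values with adjusted p-values.

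The deposited counts were fitted in R 4.3.3 with edgeR 4.0.16 (quasi-likelihood test, two-sided), with TMM scaling and no covariates. Genes were filtered by expression (at least 10 counts in enough samples and 15 in all), leaving 15272 genes with 99.9% of all counts. Adjusted p-values are Benjamini-Hochberg over all tested genes, with a threshold of 0.05. Each SE is the absolute log2 fold change over the square root of its F. The fitting script was checked on simulated counts. Exon lengths and coordinates came from GENCODE M21, in which 54349 of 55401 identifiers matched with their version, and promoters from RefSeq (GRCm38.p6), where all 10 genes matched. No pair of libraries within a group was alike to sampling noise (chi-square per gene 9.46 to 71.8). Floors for counts of 0 reflect counting error alone, since PCR copies cannot be told from separate molecules.

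The genes and lists were chosen with earlier results of these data known. Named genes are the 10, genes of the lists and nearest profiles in log2 CPM (prior count 2). The 3 nearest were taken for Ptgs2 and each other of the 10 called with at least a 2-fold change. Candidates were genes outside the 10 averaging 10 CPM or more, without predicted genes, clone-named genes and pseudogenes. Alternatives were DESeq2 size factors, scaling by library size only, the Wald test of DESeq2 1.42.0, no filter, a filter of CPM 1 in 3 samples, a block for replicate number, each sample left out in turn, and the authors' deposited table. Adding the counts of Ptges3-ps to Ptges3 was chosen after seeing the data. Some values of other genes are not reported here.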

Additional observations from a re-analysis of the deposited data

How the results depend on the processing

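The genes called numbered 8051 in the reported fit, and between 6716 and 8497 when 1 sample was left out. Of the 10 genes 7 were called in the reported fit and in every alternative, except that 6 were called without control replicate 3, where Pla2g4a missed the threshold. Over 130 values of the 10 genes under the alternatives, 127 kept their direction and side of the threshold. Ptger4, which was called in none, ranged from -0.11 to 0.048 when 1 sample was left out, with 0.037 without control replicate 2 and 0.048 without NETs-treated replicate 3. Gnas, also uncalled, ranged from -0.16 to 0.042, with 0.042 without control replicate 1 and 0.0085 without NETs-treated replicate 1. Of 1179 values of list genes 1071 kept direction and side, 96 lost and 10 gained a call. The ratio of Ptgs2 to Ptgs1 differed between groups by 46.2-fold to 48.9-fold when 1 sample was left out. With the replicate block, 8105 genes and 7 of the 10 were called. Deviations of same-numbered samples correlated at 0.124, 0.0271 and 0.067, and those of differently numbered samples between -0.088 and 0.0261. The same-numbered values were thus the higher, though all were weak. The main fit took no pairing because the labels give the numbers no meaning. Depth limits Ptger2, at 6 to 28 reads per library, and Tbxas1 in NETs-treated libraries, at 13 to 25, most among the 10 genes.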
